A study of Rattus norvegicus with 10 samples.

Results

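The 45 genes described here carry out DNA replication and the repair and checkpoint work tied to it, and they were followed in rat mammary tumours sampled before and after oral hydroxytyrosol. They were chosen by name, as genes known for these roles, with earlier results of these data known. Matching to the array went through probe sets, groups of short oligonucleotides that read 1 transcript. Only probe sets to which the platform annotation gives exactly 1 gene symbol were used. Of the 45, 41 had such a probe set and 39 passed the filter on dim signal, which left out the 40% of probe sets with the lowest mean over all arrays (under 5.14 on the log2 scale), out of 10839 genes that passed it on the whole array. Gins2, Cdc6 and Cdc7 had no probe set of their own symbol, Rrm2 lay on 2 probe sets that also carry the symbol Rrm2l1, and Orc1 and Bard1 were too dim to test.

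All tumours arose in female Sprague-Dawley rats that had been given the carcinogen DMBA (7,12-dimethylbenz(alpha)anthracene) once by mouth, at 100 mg/kg, so both groups carry the same induction. The basal group holds 5 Trucut needle biopsies (0.7 cm by 2.5 mm) from untreated animals of 12 weeks, each cut when its tumour had reached 2 cm3. The final group holds the same 5 tumours, identified as 66D2, 49I1, 51I1, 45D3 and 67D3, at sacrifice at 19 weeks, in the 7th week after biopsy, when hydroxytyrosol, a phenol of olive oil, had been gavaged at 0.5 mg/kg on 5 days a week over 6 weeks. The sample titles name the basal samples as tumour biopsies and the final samples as total tumour, so the kind of sample may differ between the groups. Tumours of 19 weeks without hydroxytyrosol were not analysed here, so treatment, age, tumour growth and the taking of the sample cannot be told apart in any difference between the groups. The labels do not say whether each tumour came from its own rat. The p-values set the mean difference against the spread of the differences within these 5 tumours. They do not set it against the spread of signal levels between tumours. In the limma fit that gave them, the spread of each probe set was drawn towards a value estimated from all tested probe sets.

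Before a cell divides it copies its genome once. Origins of replication are marked by the origin recognition complex and loaded with the MCM helicase, which is then joined by Cdc45 and the GINS complex. The helicase opens the duplex, RPA coats the single strands, DNA polymerase alpha with primase starts each strand, and polymerases delta and epsilon extend it while held by the PCNA clamp that the RFC complex loads. Many of the genes for these proteins are known targets of the E2F transcription factors and are transcribed mainly around entry into S phase, so that in a bulk tumour their RNA is widely read as a mark of cycling cells. In bulk samples such as these, fewer cycling cells and less RNA per cell cannot be told apart.

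The values are log2 signals as the authors normalised them, so a difference of 1 between 2 samples stands for a doubling of signal. The 10 arrays had medians between 7.67 and 7.80 over the 18625 probe sets tested, and the BioB spike-in, which the study took as its measure of sensitivity, averaged 7.97. Markers of luminal mammary epithelium stood high in every sample, with Krt8 from 11.89 to 12.63 in biopsies and from 11.99 to 12.70 in final samples, and Epcam from 12.65 to 12.96 and from 12.58 to 13.06. The gap between the 3′ and 5′ probe sets of hexokinase, an RNA quality control that widens as RNA is degraded, was 2.36 in the biopsy of 45D3 and 2.03 in that of 67D3, against 0.97 to 1.29 in the other 3 biopsies and 0.89 to 1.10 in the final samples.

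The replication and repair genes differed more between tumours than between the biopsy and the final sample of a tumour. In the biopsies their signal was high in 66D2, 49I1 and 51I1 and low in 45D3 and 67D3, and almost all of the genes kept that order. Expressed as the median over the 39 genes, each taken relative to its own mean over the 10 arrays, the biopsies stood at 0.82 in 66D2, 0.59 in 49I1, 0.35 in 51I1, -0.55 in 45D3 and -0.58 in 67D3. The final samples stood at 0.46, 0.11, 0.12, -0.17 and -1.13 in the same order of tumours. In each of the biopsies of 66D2, 49I1 and 51I1, 38 of the 39 genes lay above their own mean (Hus1 did not in 66D2 and 49I1, nor Slbp in 51I1). In each of the biopsies of 45D3 and 67D3 1 did, Hus1.

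**Figure D1:**
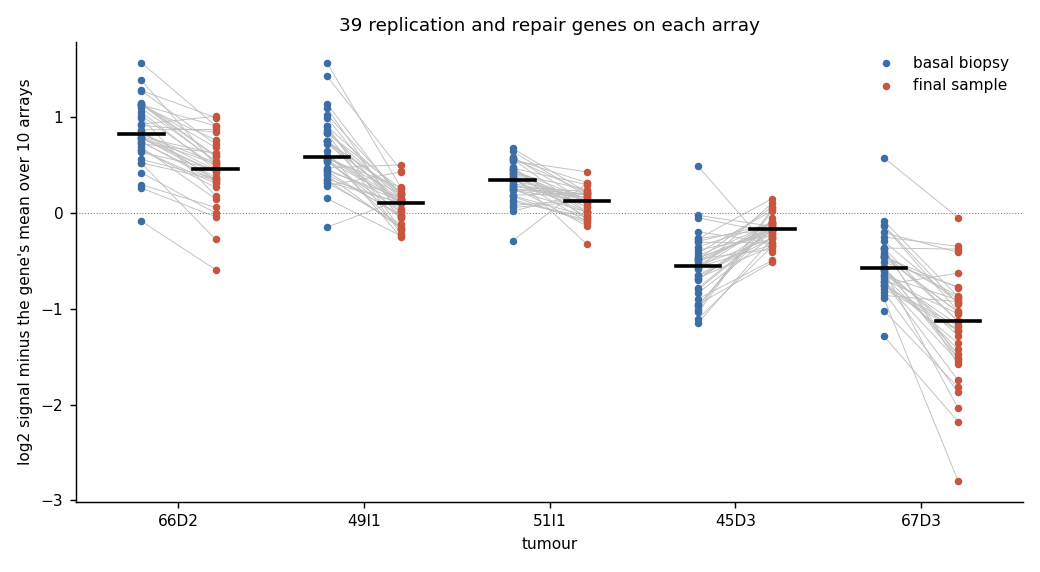
Log2 signal of the 39 tested replication and repair genes on each array, minus the mean of each gene over the 10 arrays; points are genes, grey lines join the biopsy and the final sample of a tumour, and black bars are medians. The medians were lower in the final sample in 66D2, 49I1, 51I1 and 67D3 and higher in 45D3, where they went from -0.55 to -0.17.

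Counted gene by gene, 45D3 and 67D3 were the lowest 2 biopsies for 37 of the 39 genes (94.9%, all but Slbp and Hus1), a pattern that 25.3% of all 10839 tested genes showed. In the final samples 67D3 was the lowest for 38 of the 39 (97.4%, all but Hus1, against 27.7% of all genes), and 66D2 was the highest for 33 (84.6%, against 25.5%). The same 2 tumours were the lowest in both groups for 30 genes (76.9%, against 3.68%). The genes follow one another across the arrays, so these counts describe 1 shared pattern and not 39 separate ones. In the final samples this order stood beside a hexokinase difference of 0.89 to 1.10 in all 5. The same 3′ to 5′ difference for GAPDH, a second RNA control, was 0.28 in the final sample of 67D3 and 0.03 to 0.16 in the other final samples. In the biopsies the GAPDH difference was 0.48 in 45D3 and 0.27 in 67D3, against 0.10 to 0.17 in 66D2, 49I1 and 51I1. The part of RNA quality in this order was not tested.

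The spread between biopsies was wide. Over the 39 genes the median SD between the 5 biopsies was 0.67 on the log2 scale and the median range 1.54, against 0.25 and 0.61 over all tested genes. Uhrf1, which reads hemimethylated DNA behind the replication fork, had the widest range, 2.72 in biopsies and 3.71 in final samples. Brca2, a factor in the repair of broken DNA, had the narrowest biopsy range (0.57), and the mismatch repair gene Msh6 the narrowest final range (0.50). For 36 of the 39 genes the SD between biopsies exceeded the size of the mean difference between final samples and biopsies. Mcm7, Hus1 and Brca2 were the others. Over all tested genes the median biopsy SD was 0.25 and the median size of the mean difference 0.12, against 0.67 and 0.29 over the 39. The share of all genes whose biopsy SD exceeded their mean difference was not counted. Whether the relation is particular to the 39 is therefore not known. Tumours of opposite sign also offset one another in a mean difference.

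Sequence features of the promoters were also described. RefSeq promoters on the GRCr8 assembly, 250 bases before to 50 after an annotated start, were at hand for 40 of the 45 genes. The E2F-type words TTTCCCGC, TTTCGCGC, TTTGCCGC and TTTGGCGC, searched on both strands with overlapping matches allowed, occurred in the promoters of 19 of these 40 genes (47.5%). They occurred in those of 4.21% of the 9026 tested genes with a promoter, and in 2.14% of all 33469 promoters of that length. The CCAAT word was in 52.5% of the members' and 38.9% of the tested genes' promoters, the GC box GGGCGG in 62.5% and 64.5%, and the word TATAAA in 0 of 40 and 7.20%. A match is a stretch of letters in the promoter and does not show that a factor binds there. Many of these genes are known E2F targets and were chosen for their roles, so the shares describe the list. Slbp, which departed from the shared pattern of signals, also had an E2F-type word. The relation of the words to the signals was not tested.

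For 11 of the 19 genes, picked as examples, the stretch of 30 bases around the match nearest upstream of the start is printed. It shows the matched letters in genes of different roles. The stretches are written 5′ to 3′ on the strand of the gene, with the matched words in capitals. Overlapping words on both strands merge into longer capitals, as in Mcm2, Mcm6 and Gins1.
Mcm2, chr4:122918088-122918117, minus strand: tgacccggtTTTCGCGCGAAAacccgtggc
Mcm3, chr9:30733734-30733763, minus strand: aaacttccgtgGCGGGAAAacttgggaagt
Mcm5, chr19:13488794-13488823, plus strand: ccaggttggttTTTCCCGCgaaagtcggct
Mcm6, chr13:42404471-42404500, minus strand: gcgtctgctTTTGGCGCGAAAttagcgtgt
Mcm7, chr12:22163212-22163241, minus strand: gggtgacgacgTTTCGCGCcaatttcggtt
Gins1, chr3:160184886-160184915, plus strand: ttaagcctaTTTGGCGCCAAAgagaggagc
Pola1, chrX:62342509-62342538, minus strand: gtcatcacaggGCGCCAAAtgcagtcccgc
Tyms, chr9:120776102-120776131, minus strand: aaggtgcgggtTTTGGCGCcgactacactg
Uhrf1, chr9:1223076-1223105, plus strand: cccgagtcgggTTTCGCGCgccctggcgtc
Chek1, chr8:44629853-44629882, minus strand: agcaggttttgGCGGGAAAagctgtgcact
Ung, chr12:48154047-48154076, minus strand: gcgggaacagtTTTGCCGCgaaaagcccgc
Pcna, a gene that followed the shared pattern closely, had no such word in its promoter, as the 100 bases before its start at chr3:139955821-139955920 (minus strand) illustrate.
Pcna: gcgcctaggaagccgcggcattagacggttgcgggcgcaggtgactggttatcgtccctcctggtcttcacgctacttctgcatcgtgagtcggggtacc

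Between final samples and biopsies, 38 of the 39 genes had a lower mean signal in the final samples, where 52.1% of all tested genes did. The genes were chosen with earlier results of these data known and vary together, so this count is a description and not a test. The median difference over the 39 was -0.29 on the log2 scale, against -0.01 over all genes, with a range from -0.67 for Uhrf1 to 0.08 for Rpa1. None of them passed the threshold of the test over all probe sets, an adjusted p under 0.05 (limma with the tumour as a block, adjusted p from 0.580 to 0.889 over the 39), and 0% of the genes on the array passed it. At an unadjusted p under 0.05, 3 of the 39 were lower (Cdc45, Mcm7 and Hus1), or 7.69%, against a background of 4.36% of all genes, and 0 were higher, against 2.78%. Lower in all 5 tumours were 2 (Mcm7 and Rfc5), or 5.13%, against 5.27%, and for Rfc5 this held on 1 of its 2 tested probe sets.

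**Figure D2:**
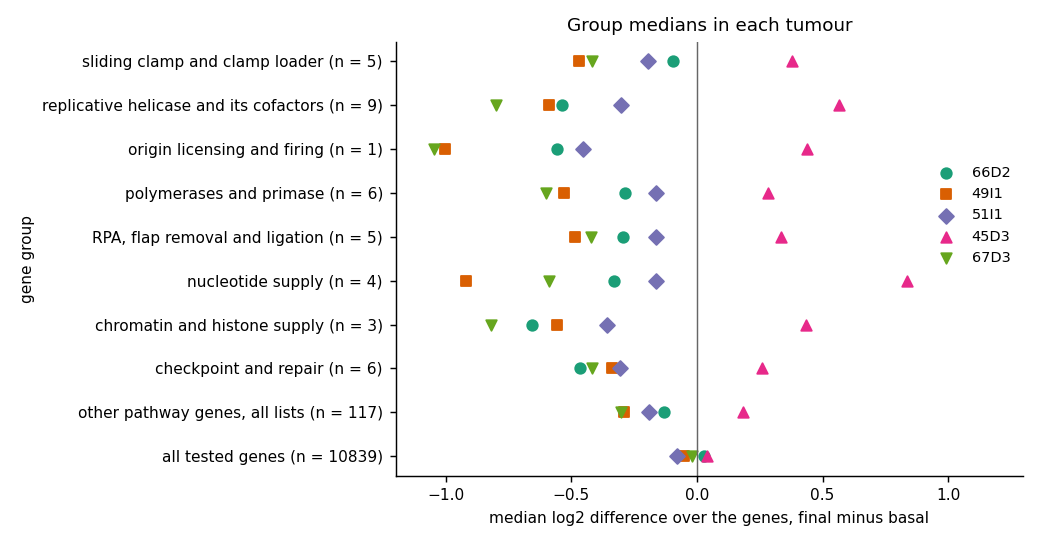
Median log2 difference, final minus basal, in each of the 5 tumours over the genes of each role, over the other genes of the pathway and over all tested genes, with the number of genes in parentheses. In every role group the symbol of 45D3 lies above 0 and those of the other 4 tumours below it, while the medians over all tested genes lie between -0.08 and 0.04.

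The direction rested on the tumour. The median over the 39 genes was -0.39 in 66D2 (37 lower), -0.56 in 49I1 (36 lower), -0.23 in 51I1 (34 lower) and -0.64 in 67D3 (38 lower), but 0.40 in 45D3, where 5 were lower (Rfc5, Mcm7, Slbp, Hus1 and Brca2). Over the tested probe sets, deviations of the biopsy and final sample from their group means correlated at -0.16 in 45D3. They correlated at 0.17 to 0.72 in the other 4 tumours. The final sample of 45D3 was closer to the biopsy of another tumour, and the part of this in its differences was not tested. The pattern of a lower value in the other 4 tumours and a higher one in 45D3 held for 28 of the 39 genes (71.8%), against 13.2% of all tested genes. Without 45D3 the median difference was -0.45 and 29 of the 39 were lower at an unadjusted p under 0.05, where 10.7% of all genes were, and none passed the adjusted threshold (limma, smallest adjusted p among them 0.117). Without 67D3 the median was -0.20 and 0 were below that unadjusted threshold, as was also the case without 66D2, where the median was -0.27. Of all 18625 tested probe sets, 795 without 67D3 and 833 without 66D2 were below it in either direction, against 1494 with every tumour kept. Without both 45D3 and 67D3, the tumours with the widest hexokinase difference in the biopsy, the median was -0.36, 38 of 39 were lower and 20 were lower at an unadjusted p under 0.05, against 8.45% of all genes.

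**Figure D3:**
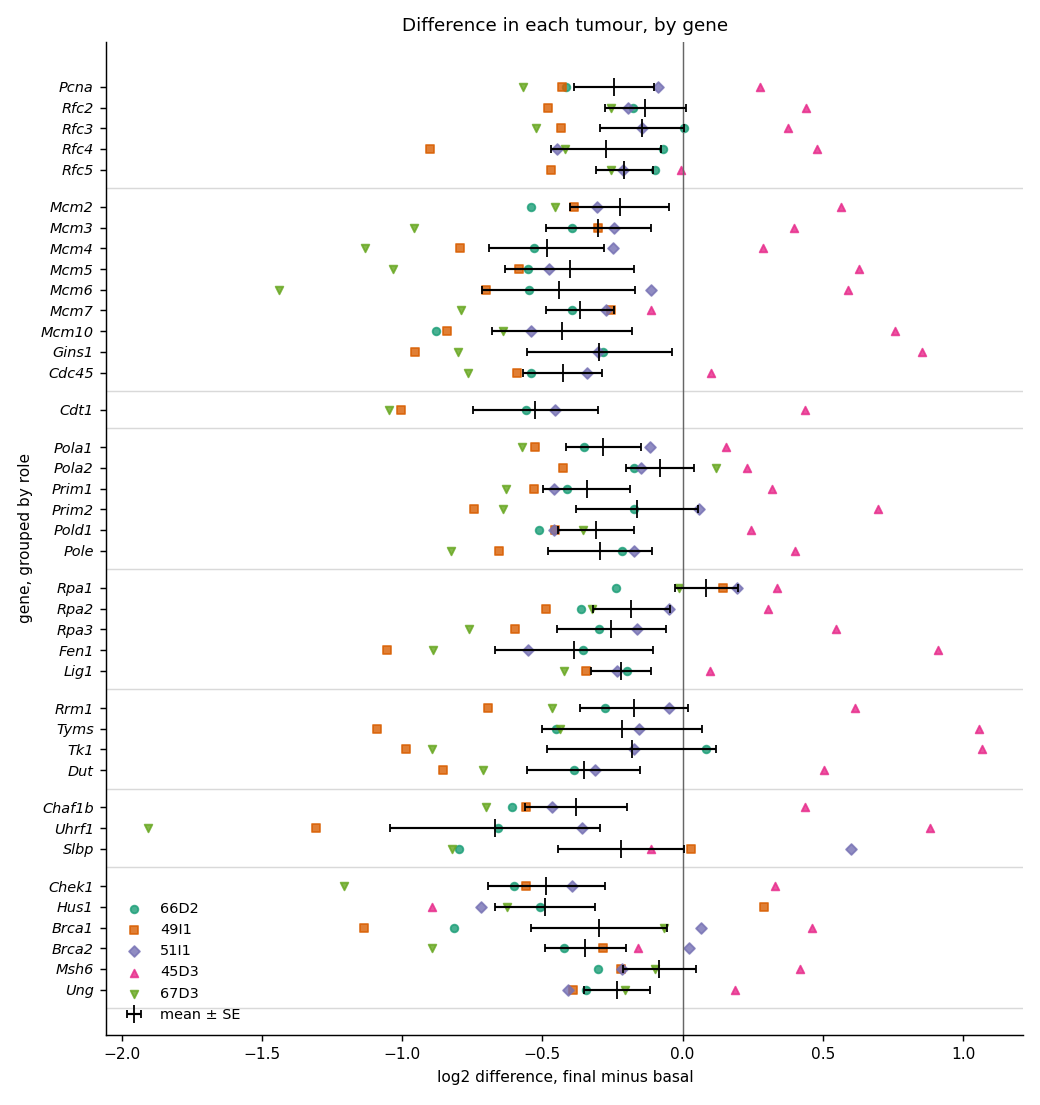
Log2 difference, final minus basal, of each of the 39 tested genes in each tumour (coloured symbols), with the mean over the 5 tumours and its SE from the limma fit (black), grouped by role. The symbols of 45D3 lie to the right of 0 for 34 of the 39 genes, and for Uhrf1 the symbols run from -1.91 in 67D3 to 0.88 in 45D3.

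Pcna, the sliding clamp that holds polymerases on DNA, had biopsy signals of 12.33, 12.13, 11.84, 11.12 and 11.12 in 66D2, 49I1, 51I1, 45D3 and 67D3, the order used for every gene below. Its final signals were 11.91, 11.71, 11.75, 11.39 and 10.55. The 2 low tumours were low on both occasions and the groups overlapped, with a mean difference of -0.24 (SE 0.14, limma adjusted p = 0.690) and a 95% confidence interval from -0.59 to 0.10. The 4 clamp loader subunits measured, Rfc2, Rfc3, Rfc4 and Rfc5, differed by -0.13, -0.14, -0.27 and -0.21. Rfc4 had the largest spread of differences in the clamp group, with 9.39, 9.12, 8.93, 7.90 and 7.71 in biopsies and 9.32, 8.22, 8.48, 8.38 and 7.29 in final samples, from 0.90 lower in 49I1 to 0.48 higher in 45D3. Rfc5 stood at 9.68, 9.39, 9.14, 8.65 and 8.44 in biopsies and at 9.58, 8.92, 8.92, 8.64 and 8.19 in final samples, lower in 5 of 5 tumours but by only 0.01 in 45D3 (limma adjusted p = 0.656). Its second tested probe set was lower in 4 of 5 tumours and 0.24 higher in 45D3, with a mean difference of -0.23 (SE 0.13, limma adjusted p = 0.668).

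The helicase and its cofactors form the group with the most genes. All 9 measured members had a lower mean in the final samples, with a group median of -0.40. Mcm7, an MCM ring subunit, had biopsy signals of 11.29, 10.99, 10.81, 10.43 and 10.55 and final signals of 10.90, 10.73, 10.53, 10.32 and 9.76. It was lower in 5 of 5 tumours, with a mean difference of -0.36 (SE 0.12, limma adjusted p = 0.580), although the groups overlapped. Mcm4, its neighbour in the ring, stood at 9.65, 9.39, 9.01, 8.09 and 8.26 in biopsies and at 9.13, 8.60, 8.77, 8.38 and 7.12 in final samples, with the largest difference in 67D3 (-1.13). Mcm4 differed by -0.48 (SE 0.20, limma adjusted p = 0.629).

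The other ring subunits repeated this order of tumours. Mcm2 had 9.54, 9.44, 9.27, 8.16 and 8.41 in biopsies and 9.00, 9.05, 8.97, 8.72 and 7.96 in final samples, a difference of -0.22 (SE 0.18, limma adjusted p = 0.762), with 45D3 (0.57) opposed to the other 4 tumours (-0.54 to -0.30). Mcm6 had 10.07, 9.77, 9.47, 8.09 and 8.33 and then 9.52, 9.07, 9.36, 8.68 and 6.89, and its difference ran from -1.44 in 67D3 to 0.59 in 45D3. Mcm3 and Mcm5 differed by -0.30 and -0.40. Their promoters, like those of Mcm2, Mcm6 and Mcm7, held the E2F-type words printed above, while the promoter of Mcm4 was not analysed here.

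Cdc45, which joins the MCM ring to form the active helicase, had the smallest p of the 39 genes. Its biopsy signals were 8.67, 8.25, 7.88, 7.05 and 6.87 and its final signals 8.12, 7.67, 7.54, 7.15 and 6.11, lower in 4 tumours and 0.10 higher in 45D3, with a mean difference of -0.43 (SE 0.14, limma adjusted p = 0.580). Gins1, a subunit of the GINS complex, differed by -0.30, from -0.95 in 49I1 to 0.85 in 45D3. Mcm10, a factor in helicase activation whose signal lay below BioB in all 5 biopsies, differed by -0.43.

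Cdt1, which brings the MCM ring to origins, the step that licenses them, was the one licensing gene tested. It went from 9.32, 9.19, 8.72, 7.09 and 7.22 in biopsies to 8.77, 8.18, 8.27, 7.53 and 6.17 in final samples and differed by -0.53 (SE 0.22, limma adjusted p = 0.629). Orc1, the largest subunit of the origin recognition complex, was below the dim limit of 5.14 on average and was not tested. Its signals of 6.37, 5.98, 5.28, 3.77 and 4.10 in biopsies and 5.15, 4.61, 4.72, 4.09 and 3.38 in final samples had the same order of tumours in the biopsies, with 66D2, 49I1 and 51I1 above 45D3 and 67D3.

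Among the polymerases and primase subunits, 6 of 6 had a lower mean in the final samples, by between 0.08 and 0.34. Pold1, the catalytic subunit of polymerase delta, had biopsy signals of 8.53, 8.27, 8.04, 7.32 and 6.98 and final signals of 8.02, 7.81, 7.59, 7.57 and 6.63. It was 0.24 higher in 45D3 and between 0.36 and 0.51 lower in the other 4, with a mean difference of -0.31 (SE 0.14, limma adjusted p = 0.637). Prim2, the large primase subunit, had the widest spread of differences in the group, with 7.83, 7.78, 7.28, 6.61 and 6.90 in biopsies and 7.66, 7.03, 7.34, 7.31 and 6.26 in final samples, and a mean difference of -0.16 (SE 0.22, limma adjusted p = 0.858). Prim1, the catalytic primase subunit, and Pola1, the catalytic subunit of polymerase alpha, differed by -0.34 and -0.28. Pole, the catalytic subunit of polymerase epsilon, differed by -0.29, and Pola2, the accessory subunit of polymerase alpha, by -0.08.

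Of the genes that bind single strands and join Okazaki fragments, Rpa1 was the one of the 39 with a higher mean in the final samples. Rpa1, the large subunit of the RPA complex, had biopsy signals of 9.28, 9.27, 9.00, 8.54 and 8.62 and final signals of 9.04, 9.41, 9.20, 8.87 and 8.61. It was higher in 3 tumours and lower in 2, and its mean difference of 0.08 (SE 0.11, limma adjusted p = 0.854) was smaller than the spread between tumours. The other RPA subunits, Rpa2 and Rpa3, differed by -0.18 and -0.25. Fen1, the nuclease that trims flaps from Okazaki fragments, stood at 8.69, 8.40, 8.13, 6.60 and 6.99 in biopsies and 8.33, 7.35, 7.58, 7.51 and 6.10 in final samples, 0.91 higher in 45D3 and 1.06 lower in 49I1. Lig1, the ligase that seals those fragments, went from 9.21, 9.11, 8.89, 8.39 and 8.21 to 9.01, 8.76, 8.66, 8.48 and 7.78, a narrower difference of -0.22 (SE 0.11, limma adjusted p = 0.655).

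For nucleotide supply, 4 of 4 genes had a lower mean, and the tumours stood farther apart than in any other role group, with medians of 0.84 in 45D3 and -0.92 in 49I1. Tk1, the thymidine kinase of dividing cells, had 8.99, 9.50, 8.48, 7.03 and 6.78 in biopsies and 9.08, 8.51, 8.31, 8.10 and 5.89 in final samples. In 45D3 it was 1.07 higher, in 49I1 0.99 and in 67D3 0.89 lower, so that the mean difference was -0.18 (SE 0.30, limma adjusted p = 0.889). Tyms, the thymidylate synthase, differed by -0.22, from -1.09 in 49I1 to 1.06 in 45D3. Rrm1, the large subunit of ribonucleotide reductase, differed by -0.17. Dut, which removes dUTP before it enters DNA, stood at 10.80, 10.93, 10.44, 9.37 and 9.65 in biopsies and 10.42, 10.08, 10.13, 9.88 and 8.93 in final samples on its brighter probe set. Its mean difference was -0.35 (SE 0.20, limma adjusted p = 0.677).

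Uhrf1 had the largest mean difference of all 39 genes and the largest spread. Its biopsy signals were 9.26, 9.26, 8.27, 6.55 and 6.81 and its final signals 8.61, 7.96, 7.91, 7.43 and 4.90, the last of which, in 67D3, lay under the dim limit. The mean difference was -0.67 (SE 0.37, limma adjusted p = 0.671), and it was -1.06 without 45D3 and -0.36 without 67D3. Chaf1b, a subunit of the histone chaperone that works behind the fork, went from 7.87, 7.12, 7.37, 6.08 and 6.15 to 7.26, 6.56, 6.91, 6.51 and 5.45, a difference of -0.38 (SE 0.18, limma adjusted p = 0.651). Slbp, which binds the stem-loop of histone mRNAs, departed from the pattern of the others, with differences of -0.80, 0.03, 0.60, -0.11 and -0.82 and a mean of -0.22.

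In the checkpoint and repair group, 6 of 6 genes had a lower mean. Chek1, the kinase that restrains the cycle when forks stall, stood at 8.35, 8.05, 7.75, 6.62 and 6.93 in biopsies and 7.75, 7.49, 7.35, 6.95 and 5.72 in final samples, with a mean difference of -0.49 (SE 0.21, limma adjusted p = 0.631). Brca1, a recombination and checkpoint factor, was dim, with 6.24, 6.35, 5.30, 4.70 and 4.38 in biopsies and 5.42, 5.21, 5.37, 5.16 and 4.32 in final samples, all below BioB, and differed by -0.30 (SE 0.24, limma adjusted p = 0.771). Brca2 stood at 7.26, 7.28, 7.03, 6.79 and 6.71 and then 6.84, 7.00, 7.05, 6.64 and 5.82, with a mean difference of -0.35 (SE 0.15, limma adjusted p = 0.624). It was lower in 45D3 as well (-0.16) and 0.02 higher in 51I1. Ung, the glycosylase that removes uracil from DNA, went from 9.69, 9.18, 9.31, 8.74 and 8.83 to 9.34, 8.79, 8.90, 8.92 and 8.62, a mean difference of -0.23 (SE 0.12, limma adjusted p = 0.657). Msh6 differed by -0.08, less than its SD between biopsies. Bard1, the partner of Brca1, was under the dim limit and not tested, with biopsy signals of 5.88, 5.79, 5.23, 4.23 and 4.26 and final signals of 5.50, 4.86, 4.71, 4.51 and 4.01.

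Hus1, a subunit of the checkpoint clamp loaded at damaged DNA, did not follow the order of tumours that the other genes shared on the probe set that represents it. On that probe set, the brighter of 2 (1389536_at), the biopsies read 6.70, 6.64, 7.18, 7.28 and 7.37 and the final samples 6.20, 6.93, 6.46, 6.38 and 6.74, so the biopsies of 45D3 and 67D3 were the highest 2. The difference was -0.49 (SE 0.18, limma adjusted p = 0.593), with 49I1 opposed (0.29). On its dimmer probe set (1376238_at) the biopsies read 6.61, 6.46, 6.61, 6.17 and 6.32 and the final samples 5.94, 5.80, 5.90, 5.73 and 5.72. There the biopsies of 45D3 and 67D3 were the lowest 2, as for the other genes, the signal was lower in 5 of 5 tumours and the groups did not overlap, with a difference of -0.61 (SE 0.09, limma adjusted p = 0.413), the smallest adjusted p on the array, which Fancb below shared. All 10 signals of each of the 2 probe sets lay below BioB.

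**Figure D4:**
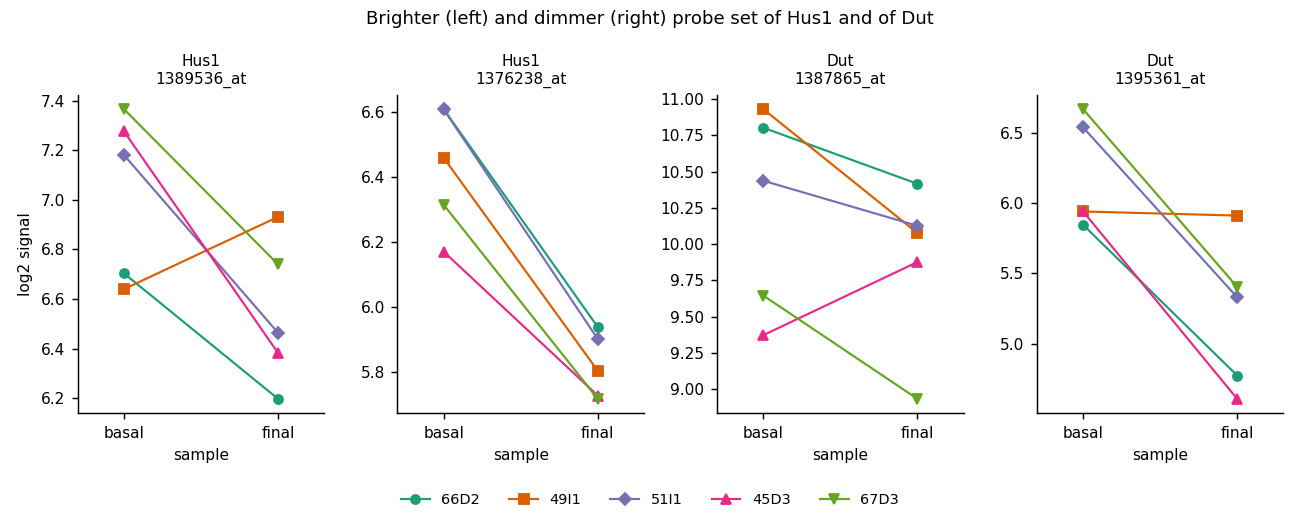
Log2 signal of the brighter and the dimmer tested probe set of Hus1 and of Dut in the basal and final sample of each tumour (lines). The dimmer Hus1 probe set was lower in all 5 tumours, and on the dimmer Dut probe set 4 tumours were lower by 1.07 to 1.34 and 49I1 by 0.03.

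Probe sets of 1 gene did not always read alike. The dimmer probe set of Dut (1395361_at) had 5.85, 5.94, 6.54, 5.94 and 6.67 in biopsies and 4.77, 5.91, 5.33, 4.61 and 5.40 in final samples, a difference of -0.98 (SE 0.20, limma adjusted p = 0.429), against -0.35 on the brighter one, and in 45D3 the 2 had opposite signs (-1.34 and 0.50). The second probe set of Mcm10 (1381298_at) was lower in 5 of 5 tumours, with a mean difference of -0.44 (SE 0.11, limma adjusted p = 0.548), while the first was 0.76 higher in 45D3. For Cdc45 the 3 tested probe sets gave -0.43, -0.42 and -0.60. Over the 47 tested probe sets of the 39 genes, 8 were lower at an unadjusted p under 0.05 (17.0%, against 4.59% of all probe sets), and 1, of Hus1, had groups that did not overlap (2.13%, against 1.07% of all probe sets being lower without overlap).

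Genes of the same pathways outside the set were counted in the same way. Their lists were also chosen with earlier results of these data known, so these counts are a description and no independent support. Of 117 further replication, repair and nucleotide synthesis genes, 94 had a lower mean (80.3%), the median difference was -0.16, and 0 passed the adjusted threshold. At an unadjusted p under 0.05, 14 were lower (12.0%, against the 4.36% of all genes) and 0 higher. By tumour their median was -0.13 in 66D2, -0.29 in 49I1, -0.19 in 51I1, 0.18 in 45D3 and -0.30 in 67D3. Among other replication factors, 21 of 25 had a lower mean, with the smallest p in Donson, a replication fork protein, at -0.59 (SE 0.14, limma adjusted p = 0.548). Next came Orc2, an origin recognition subunit whose groups did not overlap, at -0.37 (SE 0.10, limma adjusted p = 0.556). In homologous recombination and Fanconi repair 19 of 20 had a lower mean, with the smallest p in Fancb (-0.52), of the Fanconi core complex, which was lower in 5 of 5 tumours; the lowest difference of the list was -0.65, in the exonuclease Exo1. Of 14 chromatin assembly and E2F factors, 12 had a lower mean, with E2f8, an E2F repressor, at -0.52 and Chaf1a, the partner of Chaf1b, at -0.46.

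The remaining lists lay between -0.19 and 0.05 in their medians. Mismatch and excision repair genes had a lower mean in 20 of 28, with a median of -0.08 and the smallest p in the helicase Ercc2 (-0.39) and the scaffold Xrcc1 (-0.27). End joining genes, which rejoin breaks without a template, had a lower mean in 3 of 9, with a median of 0.05, Lig4 at -0.31 and Polm at 0.20. Nucleotide synthesis and salvage genes had a lower mean in 12 of 14, with Ctps1, the CTP synthase, at -0.85 and Adsl at -0.23. The checkpoint kinases and clamps had a lower mean in 7 of 7, with Wee1, an inhibitor of mitotic entry, at -0.31 and Rad1, a partner of Hus1 in the checkpoint clamp, at -0.27. All these genes had an adjusted p of at least 0.413 in the limma fit.

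Markers of other cells differed between the same samples. The 7 tested of 9 listed skeletal muscle markers all had a higher mean in final samples, and the log2 of their summed signal ran from 10.39 to 11.40 in biopsies and from 10.73 to 14.80 in final samples. Ckm, Mb, Tnnt3 and Tnnc2 were under the dim limit in all 5 biopsies. They passed the filter, which used the mean over all arrays, only through their final signals. For these genes the filter itself fixed the direction of the mean difference, and they enter both the count and the sums. By tumour the summed muscle signal differed by 3.79 in 67D3, 2.87 in 66D2, 1.60 in 49I1 and 0.20 in 51I1, and by -0.0024 in 45D3. The 10 fibroblast matrix markers, 10 of 10 with a higher mean, had a log2 summed signal of 14.30 to 15.42 in biopsies and 14.16 to 16.15 in final samples, and it was lower only in 45D3 (-0.78), the tumour in which the replication genes were higher.

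**Figure D5:**
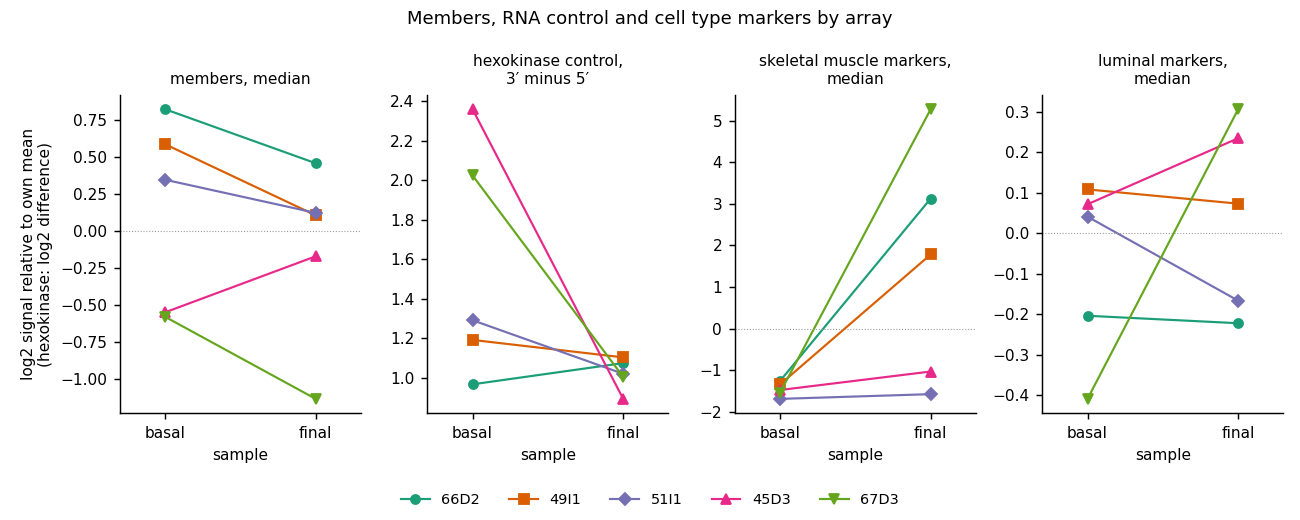
For each tumour, from basal to final sample, the median of the 39 genes relative to their own means, the 3′ minus 5′ log2 difference of the hexokinase control, and the medians of the tested skeletal muscle and luminal markers relative to their own means. The hexokinase difference was above 2 in the biopsies of 45D3 and 67D3 only, and the muscle median was highest in the final sample of 67D3 (5.28). The muscle markers include genes that passed the filter only through their final signals.

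The 6 tested of 8 adipocyte markers were higher in the mean in 6 of 6, with a log2 summed signal of 10.49 to 11.51 in biopsies and 10.75 to 13.63 in final samples, again lower only in 45D3 (-0.72). The 7 tested of 9 T and NK cell markers were higher in the mean in 7 of 7, with sums of 8.18 to 10.71 and 8.90 to 11.56, but lower in 67D3 (-1.49) and 45D3 (-0.97). Luminal markers, 10 tested of 11, had a higher mean in 8, with sums of 14.97 to 15.48 in biopsies and 15.08 to 15.57 in final samples, and differed by between -0.40 in 51I1 and 0.24 in 67D3. The 6 myoepithelial markers, 3 of 6 with a higher mean, had sums of 13.22 to 14.69 in biopsies and 13.77 to 14.52 in final samples, and the 6 macrophage markers, 3 of 6 with a higher mean, had 12.00 to 12.42 and 11.38 to 12.71. Of 6 B and plasma cell markers 1 was tested, with a lower mean. The part of these other cells, and of the hexokinase difference, in the lower replication signal was not tested.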

How the data were processed

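The data are Affymetrix rat expression arrays of 10 samples, 2 from each of 5 tumours. The authors normalised the arrays with RMA before they deposited the values, per the labels. The deposited values were taken as log2 from their range and near-equal array medians, as no label states their scale. RMA makes the distributions of the arrays alike, so a shift common to all genes cannot be seen. Gene symbols came from the platform annotation: of 31042 probe sets that are not controls, 20826 had 1 symbol, 436 several and 9780 none, and only the first were given a gene name. The 57 control probe sets were used for the BioB, hexokinase and GAPDH values alone. Probe sets in the dimmest 40% by mean over all arrays were left out (limit 5.14), and each gene was represented by its brightest probe set.

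Final minus basal was tested with the tumour as a block by lmFit and eBayes (limma 3.58.1, R 4.3.3; 4 residual degrees of freedom), with Benjamini-Hochberg adjustment over 18625 probe sets and a threshold of 0.05. The tumour identifiers in the labels pair the samples. Deviations from the group means correlated at 0.72 in 66D2, 0.47 in 67D3, 0.29 in 49I1, 0.17 in 51I1 and -0.16 in 45D3 over the tested probe sets, which are not independent. By this measure the final sample was closest to its own biopsy in 4 tumours, but in 45D3 it was closer to the biopsy of another tumour. Alternatives left out each tumour, the block or the filter, or changed the filter, the scaling or the choice of probe set. The script was tested on simulated arrays of known differences. The number of arrays limits the precision. The genes, their roles, the pathway lists and the marker lists were chosen with earlier results of these data known. Values by array were given for Pcna, Mcm2, Mcm4, Mcm7, Brca1 and Ung whatever their values, and, per role, for the gene with the smallest p and the one with the widest differences; in each pathway list the 2 smallest p were named, except 1 gene that is not reported here. Other genes and the second probe sets were named after their values were seen. Motif letters were counted in RefSeq promoters of the GRCr8 assembly.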

Additional observations from a re-analysis of the deposited data

Results flagged for a closer look

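Of 117 sets of 5 values checked (39 genes in biopsies, in final samples and as differences), 8 (6.84%) held a sample far from the other 4. Chance gives 1 in 20 or so among independent sets. These sets share arrays and genes that vary together, so their share cannot be compared with that rate. None of the 8 was among the biopsies. In the final samples 67D3 stood apart for Rfc2, a clamp loader subunit, at 8.28 against 9.21 to 9.54 in the others, and for Brca1 at 4.32 against 5.16 to 5.42.

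The other 6 were differences in 45D3, the tumour in which most of the genes were higher in the final sample. Mcm2 differed there by 0.57 (others -0.54 to -0.30), Mcm10 by 0.76 (-0.88 to -0.54), Prim1 by 0.32 (-0.63 to -0.41), Pold1 by 0.24 (-0.51 to -0.36), Chaf1b by 0.44 (-0.70 to -0.47) and Msh6 by 0.42 (-0.30 to -0.10). These genes vary together, so the 6 are not separate observations. The biopsy of 45D3 had the widest hexokinase difference of all arrays (2.36), and its final sample was closer to the biopsy of another tumour. The part of either in these values was not tested.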

How the results depend on the processing

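In every setting run that counts called probe sets, 0 passed the adjusted threshold. Of 18625 probe sets, unadjusted p-values under 0.05 in either direction numbered 1494 in the limma fit, 1394 by the methods' t-test and 1001 without the replicate block. The limma number was 3383 without 45D3, 795 without 67D3, 833 without 66D2, 998 without 51I1, 1507 without 49I1 and 3131 without both 67D3 and 45D3. At an unadjusted p under 0.05, 3 of the 39 genes were lower. The count was 1 without the replicate block, 8 of 41 with no filter on dim probe sets and 5 with arrays centred on their medians. It was 6 with the mean of all probe sets of a gene, and 20 without 67D3 and 45D3, a pair chosen from an earlier look at their hexokinase values. Over the array, 2276 of 31042 probe sets were below that threshold with no filter and 1507 of 18625 with centred arrays. No such total was counted for the mean of all probe sets. These totals count probe sets in both directions, so they are not the same share as the gene counts. Leaving out 1 tumour at a time gave 0 to 29. With a filter at the BioB level 20 of 21 genes tested had a lower mean, since fewer were tested. Leaving out 1 tumour gave 35 to 38 genes with a lower mean and a median between -0.45 and -0.20. The difference turned just above 0 without 49I1 for Pola2 (-0.16 to 0.0066 over the 5 omissions), Tyms (-0.53 to 0.0024) and Tk1 (-0.49 to 0.021). The median stayed below 0 in every setting run. Below BioB on all 10 arrays lie 10 of the 39 genes (Mcm10, Pola2, Prim2, Pole, Tyms, Chaf1b, Slbp, Hus1, Brca1 and Brca2) and the dimmer Hus1 and Dut probe sets, where signal over background limits what can be read. The cause of the changes between settings was not tested.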
